A study of Mus musculus with 47 samples.

Results

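The genes described here carry fatty acids into skeletal muscle and burn them in the mitochondria. The set holds 34 genes taken from a list of names, out of 13500 genes in the table, and all 34 were measured. The list was chosen with earlier results of these data known, so counts set against all genes are descriptions. They fall into 6 genes of uptake and trapping, 4 of the carnitine shuttle, 5 acyl-CoA dehydrogenases, 6 other enzymes of the oxidation spiral, 4 auxiliary enzymes for unsaturated fatty acids, 3 of electron transfer, 4 around malonyl-CoA, acyl-CoA hydrolysis and uncoupling, and 2 nuclear receptors. Levels come from RNA sequencing of whole tibialis anterior, a mostly fast-twitch leg muscle, of female C57BL/6 mice fed ad libitum, collected at Zeitgeber time 0 or 12 (ZT0, lights on, and ZT12, lights off). There were 47 libraries in 12 groups of 4 libraries, except that WT ADX ZT0 had 3.

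The groups were these. WT ADX+DEX mice were wild-type, had both adrenal glands removed, and received dexamethasone, a synthetic glucocorticoid, at 5 mg/kg. WT ADX+ADR mice had the same surgery and received adrenaline at 0.5 mg/kg. Both agents were injected intraperitoneally at ZT12 for 10 days. The design text also gives 2 weeks of recovery before collection, but it does not fix how surgery, injections and recovery followed each other, so the time from the last dose to collection is uncertain in every comparison with a hormone group. WT ADX mice were adrenalectomized with no hormone given, and WT SHAM mice had a sham operation. RE-RE ADX and RE-RE SHAM mice underwent the same operations and carried Bmal1(stopFL/stopFL) together with Syt10-Cre(-/tg) and also Hsa-Cre(-/tg), in which a blocked clock gene Bmal1 is restored by Syt10-Cre in the brain and by Hsa-Cre in skeletal muscle fibres while other cells keep the block. Adrenalectomized animals drank 0.9% saline with 1% glucose. The labels name no vehicle-injected group, so hormone and injection cannot be told apart.

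Lipoprotein lipase frees fatty acids from circulating triglyceride at the vessel wall, the scavenger receptor CD36 and the transporter FATP1 bring them into the fibre, and acyl-CoA synthetase traps them as acyl-CoA. Carnitine palmitoyltransferase 1 then hands long-chain acyl groups to carnitine, a step that malonyl-CoA blocks, and the shuttle delivers them to the matrix. There the acyl-CoA dehydrogenases, hydratases, hydroxyacyl-CoA dehydrogenases and thiolases shorten the chain round by round, and the electron transfer flavoprotein passes the electrons on to the respiratory chain. The receptors PPAR-alpha and PPAR-delta bind fatty acids and activate many of these genes, and in muscle the pathway is known to rise with fasting and endurance exercise. Glucocorticoids and adrenaline, the adrenal hormones lost after adrenalectomy, are both known to mobilise fatty acids.

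Some features of the libraries bear on what follows. Depth, recovered from the steps between low values, was 16.3 M to 35.6 M reads with a median of 22.7 M. Low values identical to the last digit were shared by 16 to 80 genes between 40 of the libraries and a library of their own group, against at most 1 in the other 7 libraries (WT SHAM ZT0 replicate 4, WT SHAM ZT12 replicate 8, RE-RE SHAM ZT0 replicate 2, RE-RE SHAM ZT12 replicate 6, RE-RE ADX ZT0 replicates 1 and 4 and RE-RE ADX ZT12 replicate 5). Libraries of a group may therefore not be independent, and p-values may be too small. Nor do the labels say which libraries, if any, share a cage or day. A value of exactly 0 occurred in 1389 genes, 96 of them with a mean over 10 FPKM (fragments per kilobase of transcript, scaled to library size), and is given here as listed at 0 and not as absence. Skeletal muscle defining genes were present in every library, with a summed level of 44500 to 67100 FPKM. In bulk muscle, fewer cells of a type and less RNA per cell cannot be told apart.

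WT ADX libraries differed from the others in more than surgery. Nnt, a mitochondrial transhydrogenase gene, was listed at 0 in all 7 of them, in 2 of the 8 WT SHAM libraries and in none of the 8 WT ADX+ADR, 8 WT ADX+DEX and 16 RE-RE libraries. Wdfy1 measured 0.0574 to 0.622 FPKM in WT ADX, against 1.81 to 4.11 FPKM in WT SHAM. WT ADX animals were aged 12 to 17 weeks and WT SHAM animals 9 to 12 weeks. Dexamethasone-treated animals were 11 to 14 weeks old, adrenaline-treated animals 13 to 14, RE-RE ADX animals 8 to 18 and RE-RE SHAM animals 9 to 14. Adrenalectomy cannot be told apart from whatever else set the WT ADX animals apart, and every comparison with WT ADX below carries that limit.

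Averaged over the libraries, long-chain acyl-CoA dehydrogenase Acadl (181 FPKM), the cytosolic fatty acid carrier Fabp3 (171 FPKM) and very-long-chain acyl-CoA dehydrogenase Acadvl (161 FPKM) were the most abundant, and Angptl4 (1.29 FPKM), Ppara (2.27 FPKM) and Cpt1b (2.58 FPKM) the least. Cpt1b shared 81.4% of its exon bases with the same-strand gene Gm44502, Etfb 58.2% with Gm45233 and Mir7051, and Acadvl 42.9% with Dvl2 on the opposite strand, so their levels are uncertain. All 34 genes differed somewhere among the 12 groups by limma's moderated F test at an adjusted p under 0.05, in a table where 94.6% of genes did.

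One ordering recurred through most of the set. WT ADX+DEX gave the highest mean for 26 genes, and for 24 of them both highest means. The lowest mean was in WT ADX for 30 genes, with WT ADX ZT0 the lowest group for 28. The spread between the highest and lowest group mean was 11.7-fold for Ucp3, which has libraries listed at 0, 11.4-fold for Ppara, 4.01-fold for Slc27a1, 2.75-fold for Acsl1, 2.6-fold for Cd36 and 1.27-fold for Hadh. Across the 12 group means, 25 genes are described by a Pearson r of 0.8 or more with the median of the other genes, whereas Hadh (0.26), Lpl (0.47), Angptl4 (0.52) and Ucp3 (-0.3) followed it least. These means come from libraries shared by all genes, so the coefficients are descriptions.

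In adrenalectomized wild-type muscle most genes of the pathway fell. At ZT0, 26 of 34 genes fell and none rose in WT ADX against WT SHAM, where 19.4% of all 12000 genes tested fell and 12.6% rose. At ZT12, 25 fell and none rose, against 16.6% and 10.3% of all genes. The median log2 change of the 34 genes was -0.45 at ZT0 and -0.33 at ZT12, and that of all genes tested was -0.02 at both times. All 25 genes that fell at ZT12 were among the 26 that fell at ZT0. All 4 carnitine shuttle genes, all 3 electron transfer genes and both nuclear receptors fell at both times, and 4 of the 5 acyl-CoA dehydrogenases did, whereas of the 4 auxiliary enzymes only Eci1 did. The genes that did not pass the test numbered 8 at ZT0 and 9 at ZT12.

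Among the uptake genes, Cd36 (ENSMUSG00000002944, GRCm38 chromosome 5, 17781690 to 17888801, minus strand) measured 73.8, 81.3 and 81.6 FPKM in WT ADX at ZT0, against 135, 131, 103 and 124 FPKM in WT SHAM. At ZT12 it measured 72.4, 64.8, 79 and 87.7 FPKM in WT ADX, against 116, 94.7, 102 and 107 FPKM in WT SHAM. Every WT ADX library lay below every sham library at the same time, with log2 changes of -0.64 ± 0.12 (SE, adjusted p = 0.000119) at ZT0 and -0.47 ± 0.11 (adjusted p = 0.00189) at ZT12. Acsl1, the synthetase that traps fatty acids in the cell, likewise separated at both times, with means of 20.8 ± 4.49 and 22.9 ± 4.67 FPKM (SD) in WT ADX at ZT0 and ZT12, against 32.8 ± 3.78 and 37.9 ± 3.01 FPKM in WT SHAM. Its log2 change was -0.67 ± 0.15 at ZT0 and -0.75 ± 0.14 at ZT12.

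Slc27a1 (ENSMUSG00000031808, chromosome 8, 71568882 to 71587302, plus strand), which encodes FATP1, fell most of the uptake genes at ZT0. It measured 22.5, 19.5 and 17.4 FPKM in WT ADX at ZT0, against 36.7, 35.4, 30.8 and 35.5 FPKM in WT SHAM, a log2 change of -0.81 ± 0.12 (adjusted p = 3.31e-06). At ZT12 the values were 27.9, 29.8, 31.2 and 29.9 FPKM in WT ADX, against 42.8, 56.5, 42 and 48.2 FPKM in WT SHAM. The groups did not overlap at either time, which the rule for naming genes favoured. Lpl, the lipase itself, measured 68.8, 104 and 95.9 FPKM in WT ADX at ZT0, against 163, 136, 131 and 161 FPKM in WT SHAM, again without overlap (log2 change -0.73 ± 0.13, adjusted p = 5.68e-05). Fabp3 did not pass the test at either time (log2 changes -0.44 ± 0.22 and -0.04 ± 0.21), and at ZT0 its highest WT ADX library and its lowest WT SHAM library both measured 122 FPKM.

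Inside the mitochondrion, the 5 acyl-CoA dehydrogenases had a median log2 change of -0.43 at ZT0 and the 3 electron transfer genes -0.47, against -0.66 for the 6 uptake genes. Acadvl (ENSMUSG00000018574, chromosome 11, 70010183 to 70015411, minus strand), which opens the oxidation of long chains, measured 108, 105 and 110 FPKM in WT ADX at ZT0, against 164, 157, 176 and 172 FPKM in WT SHAM. The gap between the groups was wider than the range within either (log2 change -0.64 ± 0.1, adjusted p = 5.58e-06). Slc25a20 (ENSMUSG00000032602, chromosome 9, 108662088 to 108684641, plus strand), the carrier that moves acylcarnitine across the inner membrane, measured 10.3, 10.6 and 8.59 FPKM in WT ADX at ZT0, against 15.2, 13.7, 14.3 and 16.3 FPKM in WT SHAM (log2 change -0.6 ± 0.14, adjusted p = 0.00139). These groups did not overlap either. Hadha, the larger subunit of the trifunctional protein, had a log2 change of -0.36 at ZT0 and -0.25 at ZT12. Hadh, the hydroxyacyl-CoA dehydrogenase for shorter chains, fell at ZT0 (-0.35 ± 0.08, adjusted p = 0.000713) and missed the threshold at ZT12 (-0.18 ± 0.07, adjusted p = 0.0601).

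The largest fall was in Ppara (ENSMUSG00000022383, chromosome 15, 85734983 to 85802819, plus strand), the gene of PPAR-alpha. It measured 0.337, 0.293 and 0.315 FPKM in WT ADX at ZT0, against 1.45, 1.31, 1.57 and 2.96 FPKM in WT SHAM. At ZT12 it measured 1.09, 0.48, 0.913 and 0.822 FPKM in WT ADX, against 3.87, 2.77, 3.06 and 1.77 FPKM in WT SHAM. No WT ADX library reached any of the other 40 libraries, whose values ran from 1.31 to 4.42 FPKM. The log2 change was -2.42 ± 0.24 at ZT0 (adjusted p = 1.75e-09) and -1.79 ± 0.22 at ZT12 (adjusted p = 1.85e-07). Ppard, which encodes PPAR-delta and is the more abundant of the pair in these libraries, changed far less, by -0.28 ± 0.08 and -0.33 ± 0.07.

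Acacb, the acetyl-CoA carboxylase that makes the malonyl-CoA which restrains the shuttle, fell as well. It measured 33.3, 28.6 and 24.5 FPKM in WT ADX at ZT0, against 44.1, 47.6, 42.4 and 50.1 FPKM in WT SHAM, with no overlap (log2 change -0.69 ± 0.1, adjusted p = 1.16e-06). Mlycd, the decarboxylase that removes malonyl-CoA, did not pass the test at ZT0 (-0.31 ± 0.16, adjusted p = 0.145) or ZT12 (-0.24 ± 0.15, adjusted p = 0.253).

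Other cell and organelle markers moved in the same comparison. Of 14 genes that track mitochondrial content, such as citrate synthase, 12 fell at each time, with a median log2 change of -0.35 at ZT0 and -0.24 at ZT12, and their summed level was 3740 to 3900 FPKM in WT ADX ZT0, against 4720 to 5060 FPKM in WT SHAM ZT0. Of 8 endothelial markers, 6 rose at ZT0 and 7 at ZT12, with a summed level of 216 to 268 FPKM in WT ADX ZT0, against 158 to 176 FPKM in WT SHAM ZT0. Summed slow and IIA fibre markers ran from 75.4 to 238 FPKM in WT ADX ZT0, against 349 to 741 FPKM in WT SHAM ZT0, and 2 of the 8 passed the test, downward. Of 9 handling stress genes 5 rose at ZT12, and of 7 macrophage markers 3 rose at ZT0 and 2 at ZT12. The summed mitochondrial level was 4070 to 4320 FPKM in WT ADX ZT12, against 4840 to 5140 FPKM in WT SHAM ZT12. The part of these in the falls of the fatty acid genes was not tested. With age as a covariate, 9 genes in place of 25 fell at ZT12, and Cd36 and Lpl were among those lost there.

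**Figure D1:**
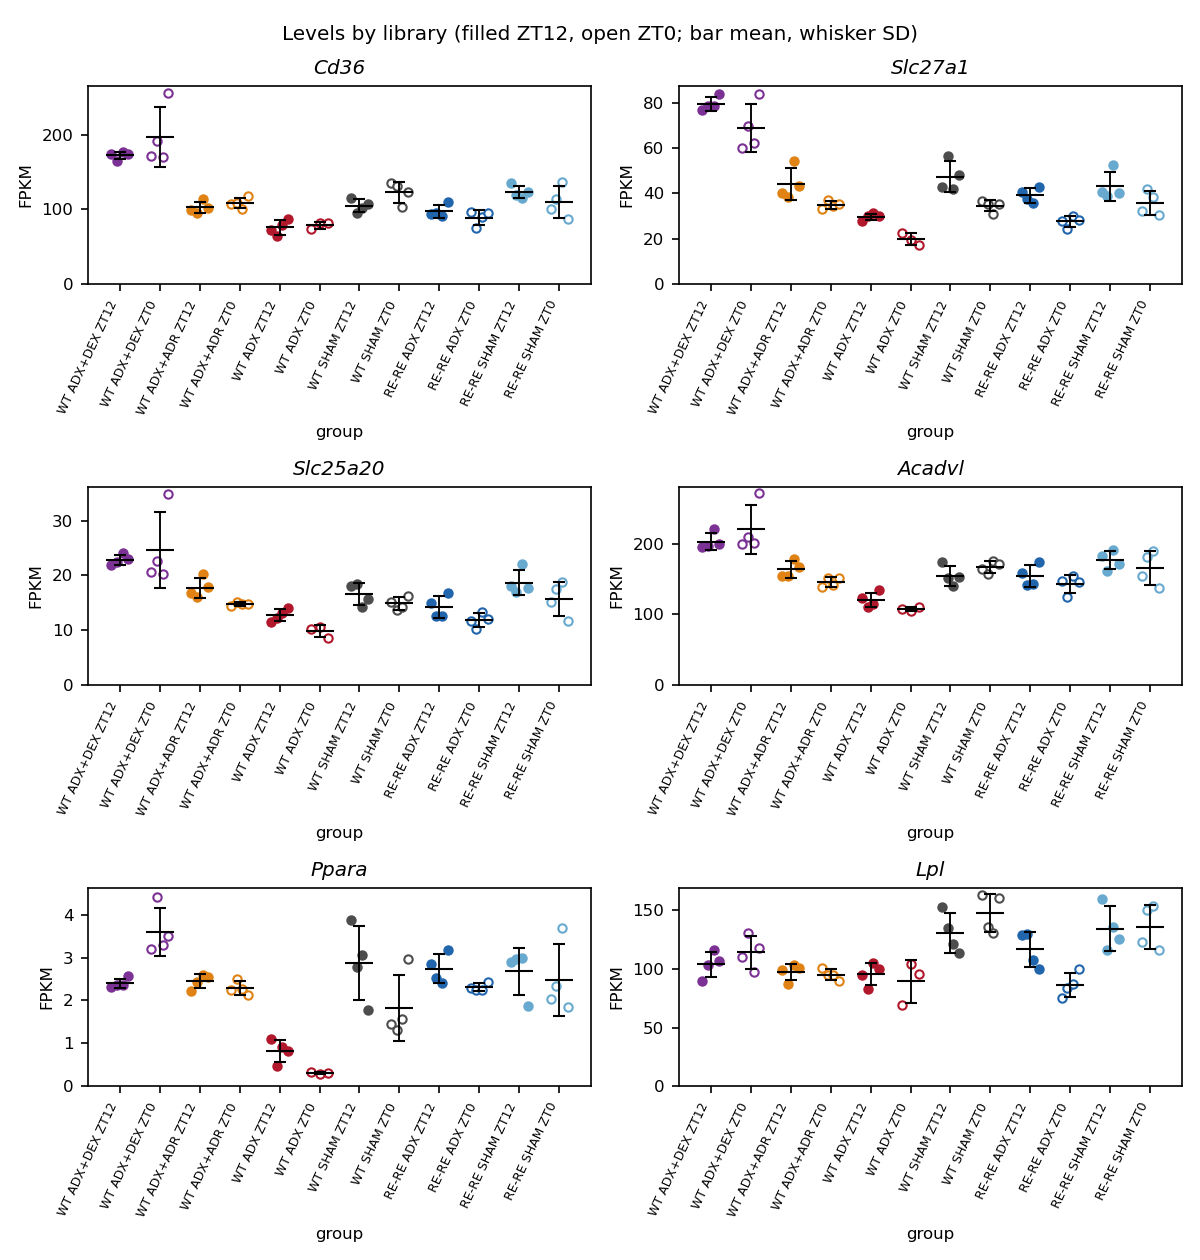
FPKM of Cd36, Slc27a1, Slc25a20, Acadvl, Ppara and Lpl in each library (points, filled at ZT12 and open at ZT0), with group mean (bar) and SD (whisker). WT ADX+DEX libraries are the highest for Cd36 and Slc27a1, and WT ADX libraries are apart from all others for Ppara, while Lpl is highest in the sham groups.

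Most genes of the pathway rose in dexamethasone-treated adrenalectomized muscle. Against WT ADX, 32 of 34 genes rose at ZT0 and 28 at ZT12, where 36.4% and 34.6% of all genes did, and the median log2 change was 0.92 at ZT0 and 0.58 at ZT12, against 0.04 and 0.02 over all genes. Set against sham muscle, 27 genes still rose at ZT0 and 22 at ZT12 (31.1% and 24.6% of all genes), with medians of 0.45 and 0.31, against 0 and -0.01 over all genes. Falls were few, with Ucp3 against WT ADX at ZT0 and none at ZT12 (32.5% and 31.7% of all genes), and Lpl and Hadh against WT SHAM at both times, joined by Ucp3 at ZT0 (31.5% and 28.1% of all genes). Comparisons with WT ADX share the WT ADX libraries, so they are not independent of each other. The mitochondrial content genes moved with the comparison against WT ADX, 13 of 14 rising at ZT0 and 9 at ZT12, and endothelial markers moved against it, 8 of 8 falling at ZT0 and 7 at ZT12. Of 8 slow and IIA fibre markers 4 rose at each time, with medians of 1.58 and 1.44, and their summed level was 337 to 705 FPKM in WT ADX+DEX ZT0, against 75.4 to 238 FPKM in WT ADX ZT0. At ZT12 all 5 red blood cell markers and 4 of 7 macrophage markers fell. The part of these lists in the comparison was not tested.

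Cd36 measured 172, 192, 170 and 256 FPKM in WT ADX+DEX at ZT0 and 174, 165, 177 and 174 FPKM at ZT12, above every other library of the series, of which the highest was 137 FPKM. Against WT SHAM its log2 change was 0.67 ± 0.11 at ZT0 (adjusted p = 3.51e-06) and 0.72 ± 0.11 at ZT12 (adjusted p = 1.55e-06). Slc27a1 stood at 59.9, 69.7, 62.1 and 83.7 FPKM in WT ADX+DEX at ZT0, also above every library outside the WT ADX+DEX groups. Its log2 change was 1.79 ± 0.12 against WT ADX (adjusted p = 1.36e-15) and 0.98 ± 0.11 against WT SHAM (adjusted p = 1.32e-09).

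The same held past uptake. Slc25a20 measured 20.6, 22.7, 20.2 and 34.8 FPKM in WT ADX+DEX at ZT0, with log2 changes of 1.29 ± 0.14 against WT ADX and 0.69 ± 0.13 against WT SHAM. Acadsb, the dehydrogenase for short branched chains of amino acid origin, had a mean of 54.9 ± 2.83 FPKM in WT ADX+DEX at ZT0, against 25.9 FPKM in WT ADX and 31.5 ± 3.27 FPKM in WT SHAM. Its log2 change against WT SHAM was 0.81 ± 0.07 (adjusted p = 3.43e-12), the largest after Slc27a1 and Ppara among genes with no library listed at 0. Acacb was also higher in WT ADX+DEX, at 63.3, 73.9, 66.3 and 86.2 FPKM at ZT0, against 44.1, 47.6, 42.4 and 50.1 FPKM in WT SHAM, and Mlycd rose by 0.63 at the same time.

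Ppara measured 3.19, 4.42, 3.29 and 3.51 FPKM in WT ADX+DEX at ZT0, and Ppard 12, 13.4, 13.1 and 13.5 FPKM. At ZT0 both receptors were above WT SHAM without overlap, by log2 changes of 1.05 ± 0.22 (adjusted p = 8.52e-05) and 0.79 ± 0.07 (adjusted p = 1.04e-11). At ZT12 neither passed the test against WT SHAM (Ppara -0.2 ± 0.22, adjusted p = 0.458, and Ppard 0.11 ± 0.07, adjusted p = 0.217).

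Against sham, Lpl and Hadh went the other way from most genes at both times, and Ucp3 did at ZT0. Lpl still rose against WT ADX at ZT0, with means of 114 ± 14 FPKM (SD) in WT ADX+DEX and 89.6 ± 18.5 FPKM in WT ADX. Lpl measured 110, 131, 97.5 and 118 FPKM in WT ADX+DEX at ZT0, against 163, 136, 131 and 161 FPKM in WT SHAM, a log2 change of -0.37 ± 0.12 (adjusted p = 0.00805) with overlapping groups. Hadh fell below sham by -0.25 ± 0.07 at both times. Endothelial markers fell in this comparison too, all 8 of them at ZT0 and 6 at ZT12 (where 1 rose), with a summed level of 87.2 to 93.1 FPKM in WT ADX+DEX ZT0, against 158 to 176 FPKM in WT SHAM ZT0, and their part in the Lpl values was not tested. The 14 mitochondrial content genes summed to 4910 to 5470 FPKM in WT ADX+DEX ZT0, against 4720 to 5060 FPKM in WT SHAM ZT0, and 2 of them rose and 1 fell.

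**Figure D2:**
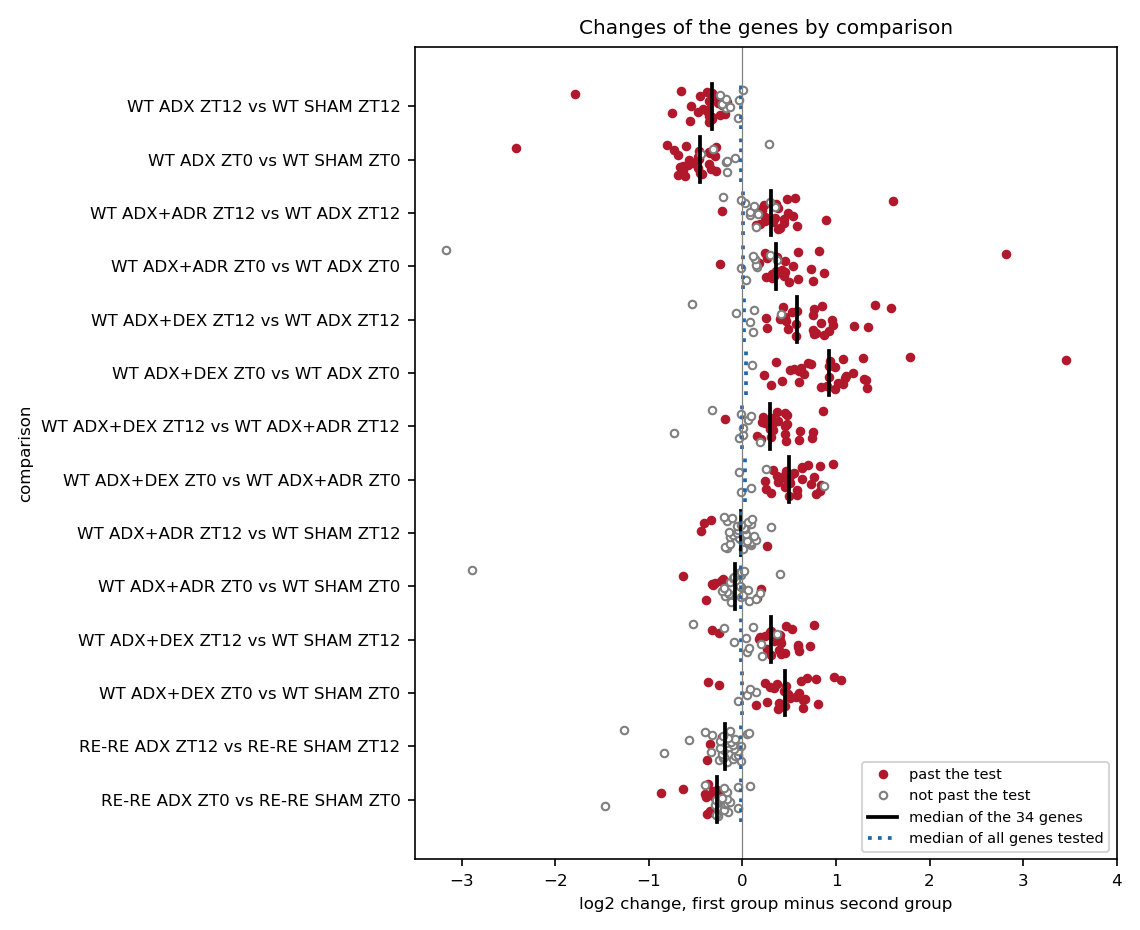
Log2 change (horizontal axis) of each gene with no value listed at 0 (points, filled where the adjusted p is under 0.05) in 14 comparisons (rows), with the median of the 34 genes (black bar) and of all genes tested (dotted bar). At ZT0 the black bars lie at -0.45 for WT ADX minus WT SHAM, 0.92 for WT ADX+DEX minus WT ADX and -0.27 for RE-RE ADX minus RE-RE SHAM, and the dotted bars stay near 0.

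With adrenaline, levels were near those of sham muscle. Against WT ADX, 24 genes rose and 1 fell at ZT0, and 23 rose and 1 fell at ZT12 (26.8% and 27.7% of all genes rose, and 24.3% and 25.3% fell). The medians were 0.36 and 0.31, and all 23 genes that rose at ZT12 were among the 24 of ZT0. Against WT SHAM, 3 rose and 7 fell at ZT0 and 2 rose and 3 fell at ZT12, out of 20.2%, 23%, 17.1% and 21.9% of all genes, with medians of -0.08 and -0.02, while 4 of 5 red blood cell markers rose at ZT0 and 7 of 9 handling stress genes at ZT12. Of the mitochondrial content genes, 10 of 14 rose at ZT0 and 11 at ZT12 against WT ADX. Endothelial markers fell, 6 of 8 at ZT0 and 5 at ZT12, and slow and IIA fibre markers rose, 4 of 8 at ZT0 (median 1) and 3 at ZT12 (median 0.53), with a summed level of 401 to 460 FPKM in WT ADX+ADR ZT0, against 75.4 to 238 FPKM in WT ADX ZT0. Of 9 handling stress genes 6 rose at ZT12, where they summed to 274 to 376 FPKM in WT ADX+ADR, against 11.5 to 71.7 FPKM in WT ADX. The part of these lists was not tested. When only the 2 groups compared entered the fit, 17 genes in place of 10 passed at ZT0.

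Acsl1 measured 37.5, 37.5, 36.8 and 37.5 FPKM in WT ADX+ADR at ZT0, against 23, 23.8 and 15.7 FPKM in WT ADX (log2 change 0.87 ± 0.15, adjusted p = 7.82e-06). The adrenaline libraries were almost identical and stood well above the others. Ppara stood at 2.25, 2.51, 2.26 and 2.13 FPKM in WT ADX+ADR at ZT0, a log2 change of 2.82 ± 0.24 against WT ADX (adjusted p = 7.51e-12). Crat, which exchanges acetyl groups between CoA and carnitine, had a mean of 108 ± 3.6 FPKM in WT ADX+ADR at ZT0, against 65.4 ± 6.31 FPKM in WT ADX (0.73 ± 0.08, adjusted p = 1.14e-09).

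Other genes, 9 of the 34 at ZT0, did not pass the test with adrenaline, and Eci2 fell. Lpl measured 101, 94.5, 95 and 89.5 FPKM in WT ADX+ADR at ZT0, not past the test against WT ADX (0.11 ± 0.13, adjusted p = 0.526) and below every WT SHAM library. Eci2, a peroxisomal and mitochondrial enoyl-CoA isomerase, was the only one of the 34 genes to fall in WT ADX+ADR against WT ADX, by -0.24 ± 0.09 at ZT0 (adjusted p = 0.0315) and -0.22 ± 0.09 at ZT12 (adjusted p = 0.0307). It was also below sham, at 16.5, 17, 16.3 and 18.6 FPKM in WT ADX+ADR at ZT0, against 22.6, 21.1, 22.1 and 19.6 FPKM in WT SHAM. Acadl likewise did not pass against WT ADX (0.04 ± 0.1 at ZT0, adjusted p = 0.747) and was below WT SHAM at ZT0 by -0.39 ± 0.09 (adjusted p = 0.00055).

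Between the hormones, most genes were higher with dexamethasone. In WT ADX+DEX against WT ADX+ADR, 28 genes rose and none fell at ZT0, and 24 rose and 1, Hadh, fell at ZT12 (25.1% and 21.2% of all genes rose, 23.5% and 21.4% fell), with medians of 0.5 and 0.3. All 24 of ZT12 were among the 28 of ZT0. Of the 28, Slc27a1 (0.97 ± 0.11), Cd36 (0.84 ± 0.11), Ppard (0.83 ± 0.07), Acadsb (0.83 ± 0.07) and Acadl (0.79 ± 0.09) differed most, while Angptl4 (0.87 ± 1.14, adjusted p = 0.56) and Ucp3 (adjusted p = 0.319) did not pass the test. For Acadl that meant 231, 242, 231 and 295 FPKM in WT ADX+DEX, against 141, 140, 135 and 157 FPKM in WT ADX+ADR, with a wide gap between the groups. Endothelial markers fell in this comparison, all 8 at ZT0 and 5 at ZT12, as did all 5 red blood cell markers and 4 of 6 fibroblast and tendon markers at ZT0 and 5 of 7 macrophage markers at ZT12. Of the mitochondrial content genes, 6 of 14 rose at ZT0 and 1 fell at ZT12. The part of these lists was not tested. The agents differ in dose, and each was tested at 1 dose.

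Fewer of the genes passed the test after adrenalectomy in RE-RE than in WT muscle, and so did fewer of all genes. At ZT0, 14 of 34 genes fell and none rose in RE-RE ADX against RE-RE SHAM (3.89% and 1.56% of all genes), with a median of -0.27. At ZT12, 3 fell and none rose (3.55% and 1.77%), with a median of -0.19. Before adjustment, limma's test gave p under 0.05 for 25 of the 34 genes at ZT0 and 15 at ZT12 (2522 and 2491 of all 12000 genes). In WT ADX against WT SHAM these counts were 27 and 28 (5007 and 4574 of all genes). Of the 14 at ZT0, 11 also fell in WT ADX at ZT0, which is 78.6% of the RE-RE list and 42.3% of the 26 in the WT list. Since 26 of all 34 genes fell in WT ADX at ZT0, unrelated lists of these sizes would share about as many. The overlap is therefore no sign of a shared response. The 3 at ZT12 were Acadl, Eci2 and Hadhb.

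These counts rest on few libraries. At ZT0, 6 genes fell without RE-RE ADX ZT0 replicate 2, 1 without the 7 libraries that share no low values, and none when only both RE-RE groups entered the fit, in a design of 4 against 4. At ZT12 the count was 1 without RE-RE SHAM ZT12 replicate 5 or RE-RE ADX ZT12 replicate 7, 5 without RE-RE SHAM ZT12 replicate 6 and 8 without RE-RE ADX ZT12 replicate 8. It was 8 with library medians made equal, and 0 with age as a covariate or without the 7 libraries.

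Lpl measured 75.4, 83.6, 87.5 and 100 FPKM in RE-RE ADX at ZT0, against 123, 150, 154 and 116 FPKM in RE-RE SHAM, a log2 change of -0.64 ± 0.12 (adjusted p = 0.00268) with no overlap. Fabp3 measured 133, 94.9, 170 and 151 FPKM in RE-RE ADX at ZT0, against 187, 318, 320 and 191 FPKM in RE-RE SHAM, the largest fall of those that passed (-0.87 ± 0.21, adjusted p = 0.0113). Cd36 did not pass at ZT0 (-0.29 ± 0.11, adjusted p = 0.117) or at ZT12 (-0.34 ± 0.11, adjusted p = 0.065). Ppara measured 2.29, 2.25, 2.24 and 2.44 FPKM in RE-RE ADX at ZT0, inside the range of 1.85 to 3.69 FPKM in RE-RE SHAM (log2 change -0.05 ± 0.22, adjusted p = 0.938).

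The difference between genotypes was tested directly, as the adrenalectomy change in RE-RE minus that in WT. At ZT0 the change was less negative in RE-RE than in WT for 7 genes (7.38% of all genes were called in that direction) and more negative for none (3.29%), namely Crat, Acadvl, Echs1, Acacb, Acot13, Ppara and Ppard. At ZT12 there were 6 (4.82% against 1.62% the other way), namely Slc27a1, Crat, Echs1, Acacb, Ppara and Ppard. For Ppard the RE-RE means were 8.44 FPKM in RE-RE ADX and 8.03 FPKM in RE-RE SHAM at ZT0, a difference that did not pass the test. Ppara differed most, by 2.37 ± 0.32 at ZT0 (adjusted p = 5.82e-06) and 1.84 ± 0.31 at ZT12 (adjusted p = 0.000237).

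Echs1, the short-chain enoyl-CoA hydratase, gave 0.41 ± 0.1 at ZT0 (adjusted p = 0.00442) and 0.53 ± 0.09 at ZT12 (adjusted p = 0.000357). At ZT12 it measured 28, 24.8, 24.2 and 27.9 FPKM in RE-RE ADX, against 29.3, 24.6, 25.4 and 27.4 FPKM in RE-RE SHAM, and 18.5, 19.9, 18.7 and 18.2 FPKM in WT ADX, against 29.1, 27.5, 26.5 and 27.4 FPKM in WT SHAM. Only the WT ADX libraries lay apart. For the other 27 genes at ZT0 and 28 at ZT12, the difference did not pass the test, which does not show that the genotypes responded alike.

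At ZT0 the count of 7 became 4 without any one of WT SHAM ZT0 replicate 4, WT ADX ZT0 replicate 2, RE-RE SHAM ZT0 replicate 4 or RE-RE ADX ZT0 replicate 3, 4 with age as a covariate and 2 without the 7 libraries that share no low values. The count at ZT12 became 3 without RE-RE ADX ZT12 replicate 8 or without those 7 libraries. The mitochondrial content genes moved with this comparison, 10 of 14 at ZT0 and 5 at ZT12 having a less negative change in RE-RE, and so did Nnt, at 0 in WT ADX only among these adrenalectomized groups. Of 6 adipocyte markers 3 were called in the same direction at ZT0, and of 8 endothelial markers 4 in the opposite one at ZT12. Their part in the difference was not tested.

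**Figure D3:**
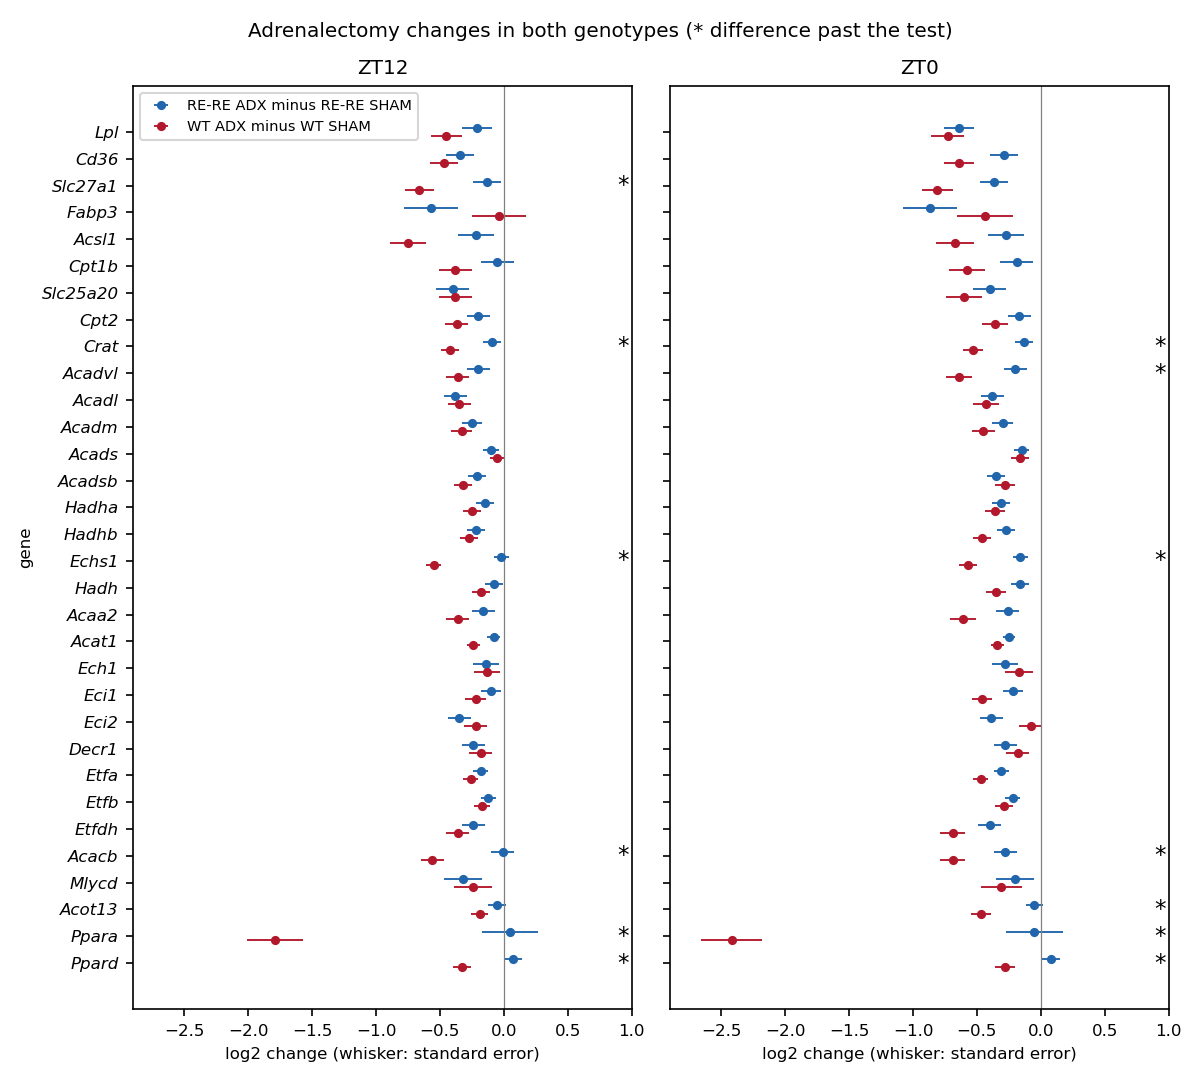
Log2 change after adrenalectomy with its standard error for 32 genes (rows, without Angptl4 and Ucp3) in RE-RE (blue) and WT (red) muscle at ZT12 and ZT0, with an asterisk where the difference between genotypes has an adjusted p under 0.05. The points differ most for Ppara, at -0.05 in RE-RE and -2.42 in WT at ZT0.

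Few of the genes differed between the sham groups of both genotypes. In RE-RE SHAM against WT SHAM, 4 genes rose and 1 fell at ZT0 and 3 rose and 2 fell at ZT12, out of 12.5%, 11.6%, 9.22% and 10.1% of all genes. Angptl4 and Fabp3 rose at both times, Acsl1 and Cpt2 at ZT0 and Acadm at ZT12, while Ucp3 fell at ZT0 and Acacb and Ppard at ZT12. The Angptl4 and Ucp3 calls involve values listed at 0. Angptl4 was listed at 0 in 3 of 4 WT SHAM libraries at each time. Ucp3 measured 0, 25.4, 39.1 and 0 FPKM in RE-RE SHAM at ZT0, against 55, 53.4, 23.5 and 17.5 FPKM in WT SHAM. With values at 0 taken as missing, 3 genes passed at ZT0 in place of 5. Fabp3 measured 293, 217, 316 and 265 FPKM in RE-RE SHAM at ZT12, against 118, 172, 97 and 148 FPKM in WT SHAM (log2 change 1.05 ± 0.21, adjusted p = 0.000373). The groups did not overlap, and at ZT0 the change was 0.78 ± 0.21 (adjusted p = 0.00554). Marker lists moved beside these calls: 4 of 6 adipocyte markers were lower in RE-RE SHAM at ZT0, 3 of 6 fibroblast and tendon markers were higher at ZT0 and 4 at ZT12, and 7 of 9 handling stress genes were higher at ZT12. Their part was not tested. Leaving out WT SHAM ZT0 replicate 2 or 3, or RE-RE SHAM ZT0 replicate 1 or 2, gave 3 calls in place of 5 at ZT0, and leaving out RE-RE SHAM ZT12 replicate 8 gave 3 in place of 5 at ZT12.

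Few of the genes passed the test for time of day. Before adjustment, limma's test gave p under 0.05 for 10 of the 34 in WT SHAM, 16 in WT ADX and 20 in RE-RE ADX. Of all 12000 genes, 4204, 3074 and 1415 did. The counts were 11 in WT ADX+ADR and 4 in WT ADX+DEX and RE-RE SHAM each (3134, 4522 and 2890 of all genes). The median log2 change was 0.19 in RE-RE ADX and 0.17 in WT ADX, against 0.01 over all genes. Other conditions ran from -0.03 (WT ADX+DEX) to 0.14 (WT ADX+ADR). In WT SHAM, 7 rose and none fell at ZT12 against ZT0 (14% and 9.5% of all genes), namely Slc27a1, Cpt2, Eci2, Acacb, Mlycd, Ppara and Ppard. WT ADX had 9 that rose (7.64% of all genes) and none that fell (3.38%), a count that became 0 when only both WT ADX groups entered the fit, in a design of 4 against 3, and 5 without WT ADX ZT0 replicate 2. WT ADX+DEX had 2 that rose, Mlycd and Ucp3, and 2 that fell, Ppara and Ppard (14.7% and 13.2% of all genes), and with adrenaline Slc27a1, Etfb and Mlycd rose and none fell (6.28% and 6.45%). Mlycd and Ucp3 rose in RE-RE SHAM and none fell (5.73% and 5.03%), and Slc27a1 alone rose in RE-RE ADX (0.592% and 0.183%). In WT SHAM 6 of 9 handling stress genes fell and 5 of 7 fast IIB fibre markers rose at ZT12, in WT ADX 3 of 6 fibroblast and tendon markers fell, and in WT ADX+DEX 4 of 7 macrophage markers fell and 4 of 8 endothelial markers rose, and their part was not tested. Without WT ADX+ADR ZT0 replicate 1 or 3 or WT ADX+ADR ZT12 replicate 7 or 8, 1 gene passed in WT ADX+ADR in place of 3. With dexamethasone, 2 passed in place of 4 without WT ADX+DEX ZT0 replicate 2 or WT ADX+DEX ZT12 replicate 6, 7 or 8, and 1 without WT ADX+DEX ZT0 replicate 3. In RE-RE SHAM none passed without RE-RE SHAM ZT0 replicate 1 or 4 or RE-RE SHAM ZT12 replicate 8, and 1 without RE-RE SHAM ZT12 replicate 7. The single call in RE-RE ADX was lost without RE-RE ADX ZT0 replicate 1 or 2 or RE-RE ADX ZT12 replicate 5 or 8, and 2 passed without RE-RE ADX ZT12 replicate 6. Without the 7 libraries that share no low values, 4 genes passed in WT SHAM and none in RE-RE ADX.

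Mlycd was the gene with a time difference in most conditions. It measured 26.4, 30.9, 31.5 and 32.9 FPKM in WT SHAM at ZT12, against 26.6, 24.3, 15.3 and 20 FPKM at ZT0, with an overlap of 1 library. In WT ADX+ADR it measured 30.2, 28.8, 36.8 and 30.8 FPKM at ZT12, against 20.3, 22.4, 20.4 and 20.8 FPKM at ZT0, with no overlap. RE-RE SHAM gave a log2 change of 0.53, WT ADX+DEX 0.43, WT ADX+ADR 0.59, WT ADX 0.6 and WT SHAM 0.52, all past the test with a standard error of 0.15 or 0.16. In RE-RE ADX it was 0.41 ± 0.15 and not past it (adjusted p = 0.229), though the groups did not overlap.

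Slc27a1 was also higher at ZT12, by 0.59 ± 0.12 in WT ADX (adjusted p = 0.00117) and 0.45 ± 0.11 in WT SHAM (adjusted p = 0.00313). RE-RE ADX gave 0.5 ± 0.11 (adjusted p = 0.016), and WT ADX+ADR gave 0.32 ± 0.11 at the edge of the threshold (adjusted p = 0.0482). In WT SHAM that was 42.8, 56.5, 42 and 48.2 FPKM at ZT12, above all 4 ZT0 libraries, which reached 36.7 FPKM. A promoter window of Slc27a1 is shown because clock factors bind the E-box CACGTG. RefSeq gives 300 bases around a start site (250 before and 50 after) for 29 start sites of 26 of the 34 genes, and a search on both strands found CACGTG in 1 of the 29, or 3.45%, against 7.15% of all 32851 promoters in the table. That 1 is a start site of Slc27a1 (GRCm38.p6, chr8:71570344-71570643, plus strand), printed 5′ to 3′ with the E-box in capitals.
Slc27a1: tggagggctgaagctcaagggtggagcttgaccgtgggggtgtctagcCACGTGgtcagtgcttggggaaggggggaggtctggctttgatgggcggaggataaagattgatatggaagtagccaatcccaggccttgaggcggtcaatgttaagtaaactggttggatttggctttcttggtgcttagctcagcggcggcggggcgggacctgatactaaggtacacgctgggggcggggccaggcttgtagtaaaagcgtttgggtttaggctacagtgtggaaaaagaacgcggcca
A match in this window is a description and not a site of binding. The other windows of Slc27a1, which begin at 71568621 and 71569347, held no E-box.

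Whether the time difference changed between conditions was tested as well. None of the 34 genes differed between WT ADX and WT SHAM in limma's test of the interaction, where 0.667% of all genes were higher and 0.875% lower. In that test 5 of the 34 had an unadjusted p under 0.05, as did 1690 of all 12000 genes. In WT ADX+DEX minus WT ADX, 4 were lower (9.48% of all genes), namely Ppara (-1.88 ± 0.32, adjusted p = 7.85e-05), Ppard (-0.64 ± 0.11, adjusted p = 5.94e-05), Acacb (-0.46 ± 0.13, adjusted p = 0.0124) and Acaa2, a thiolase (-0.42 ± 0.14, adjusted p = 0.0319). In WT ADX+ADR minus WT ADX only Ppara passed (2.62% of all genes were lower), at -1.21 ± 0.32 (adjusted p = 0.0224), and no call was left without WT ADX ZT0 replicate 2 or WT ADX ZT12 replicate 4, while 3 passed without WT ADX ZT0 replicate 1.

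Acacb and Acaa2 did not pass the test for time in WT ADX+DEX. The Acacb means there were 72.4 FPKM at ZT0 and 70.7 FPKM at ZT12, against 28.8 and 38.6 FPKM in WT ADX. For Ppard the dexamethasone difference joined a fall in WT ADX+DEX to a rise in WT ADX. In WT ADX+DEX it measured 10.5, 9.3, 10.4 and 10.7 FPKM at ZT12, against 12, 13.4, 13.1 and 13.5 FPKM at ZT0, a fall of -0.35 ± 0.07 (adjusted p = 0.000295) without overlap. In WT ADX it measured 7.64, 7.79, 7.8 and 7.05 FPKM at ZT12, against 7.16, 5.37 and 6.18 FPKM at ZT0, a rise of 0.29 ± 0.08 (adjusted p = 0.0138). With injections at ZT12 and the time from the last dose uncertain, the part of that time in the difference was not tested.

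Ucp3 (ENSMUSG00000032942, chromosome 7, 100472990 to 100486432, plus strand), the muscle uncoupling protein and a known PPAR target, behaved unlike the others. It measured 33.5, 41.9, 34.9 and 34.4 FPKM in WT ADX+DEX at ZT12, against 1.94, 0.917, 0 and 54.2 FPKM at ZT0. In WT ADX+ADR it measured 38.1, 34.5, 71.5 and 45.2 FPKM at ZT12, against 3.12, 5.71, 4.08 and 5.44 FPKM at ZT0. In RE-RE SHAM the values were 29.4, 20.3, 21.1 and 57.1 FPKM at ZT12, against 0, 25.4, 39.1 and 0 FPKM at ZT0.

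So libraries within a group ranged from listed at 0 to the highest levels, and WT ADX+DEX ZT0 replicate 4 was apart from its 3 companions. WT SHAM and WT ADX showed no such gap, with 17.5 to 74.6 FPKM in all 15 libraries. RE-RE ADX was low throughout, at 1.27 FPKM in RE-RE ADX ZT0 replicate 4 and 10.9 to 13.5 FPKM in its other libraries. Against WT ADX ZT0 the test called Ucp3 lower in WT ADX+DEX ZT0 (adjusted p = 0.0123), a call lost without WT ADX+DEX ZT0 replicate 3 (adjusted p = 0.116), and no fold is given because a library is listed at 0. For time in RE-RE SHAM, the direction turned round with values at 0 taken as missing (log2 change -0.12). WT ADX+ADR at ZT0 did not overlap WT ADX at ZT0, which measured 46.9, 35.1 and 39.3 FPKM, but did not pass the test (-3.17 ± 1.89, adjusted p = 0.16).

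The nearest partner looked at was Pdk4, which encodes the kinase that turns off pyruvate dehydrogenase when fat is burned. Pdk4 measured 26.2, 16.1, 0 and 378 FPKM in WT ADX+DEX at ZT0 and 0, 144, 275 and 0 FPKM in RE-RE SHAM at ZT0, high and low in the same libraries as Ucp3. In RE-RE ADX at ZT12 the 2 were less alike, with Pdk4 listed at 0 in 2 of 4 libraries and Ucp3 at 11.2 to 13.3 FPKM. Over the 47 libraries the Spearman correlation of Ucp3 with Pdk4 was 0.92, and the Pearson correlation of their deviations from the group means was 0.81. Among the other 33 genes the correlation of deviations with Pdk4 was highest for Mlycd, at 0.61. All genes were read from the same libraries, and Pdk4 was chosen for its pattern, so these are descriptions.

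**Figure D4:**
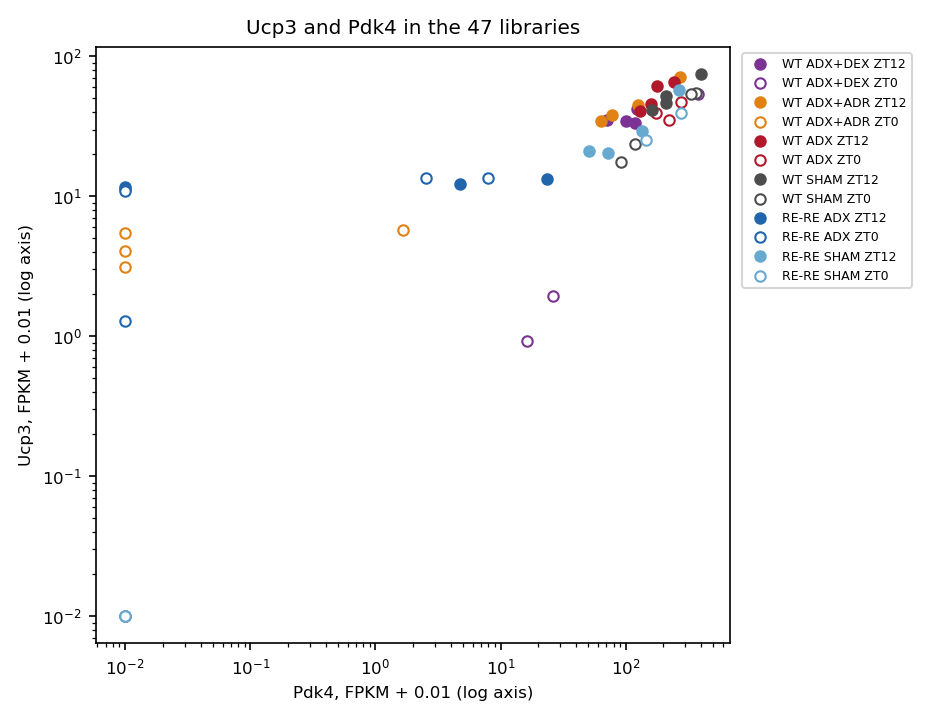
Ucp3 against Pdk4 in the 47 libraries, both as FPKM + 0.01 on log axes, with filled points at ZT12 and open points at ZT0 and values listed at 0 drawn at 0.01. Low Pdk4 mostly goes with low Ucp3, and the WT ADX+DEX ZT0 library with 378 FPKM of Pdk4 has 54.2 FPKM of Ucp3. RE-RE ADX libraries with Pdk4 listed at 0 reach 11.6 FPKM of Ucp3.

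The Ucp3 promoter is shown because it held the nuclear receptor hexamer AGGTCA more than once, the only one of the 29 to do so. The hexamer, searched on both strands, lay in 6 of the 29 promoters, or 20.7%, against 16.3% of all promoters. It was found at Acacb, Acadm, Acadvl, Cd36, Echs1 and Ucp3. The repeat to which PPARs bind, AGGNCA then 1 base then AGGNCA with N for any base, overlaps the hexamer and was in 0 of 29 (0.381% of all promoters), and the glucocorticoid receptor motif, AGNACA then 3 bases then TGTNCT, in 0 of 29 (0.0639%). These letters being absent from the windows says nothing of binding elsewhere. The Ucp3 window (GRCm38.p6, chr7:100472741-100473040, plus strand) is printed 5′ to 3′ with the hexamers in capitals.
Ucp3: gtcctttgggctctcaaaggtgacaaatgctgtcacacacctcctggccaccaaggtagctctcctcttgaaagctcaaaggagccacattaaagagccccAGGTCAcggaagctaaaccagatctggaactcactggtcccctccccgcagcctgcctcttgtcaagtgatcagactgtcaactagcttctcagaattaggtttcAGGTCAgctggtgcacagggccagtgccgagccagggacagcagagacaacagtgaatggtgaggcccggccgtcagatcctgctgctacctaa
They begin 149 and 44 bases before the start site.

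Angptl4, a secreted inhibitor of lipoprotein lipase and a known target of both PPARs and glucocorticoids, was low in every library. It was listed at 0 in 6 of 8 WT SHAM and 5 of 7 WT ADX libraries. In WT ADX+DEX it measured 1.2, 1.38, 1.32 and 0.823 FPKM at ZT12 and 2.19, 1.4, 0.771 and 3.1 FPKM at ZT0, and in WT ADX+ADR 1.88, 1.21, 3.19 and 1.9 FPKM at ZT12. Each of these libraries was above all 7 WT ADX libraries, which reached 0.403 FPKM. The test called both hormone groups higher than WT ADX at both times (adjusted p between 1.11e-06 and 0.0145). Both were also called higher than WT SHAM at ZT0, a direction that turned round with values at 0 taken as missing (-0.57 in WT ADX+DEX and -1.43 in WT ADX+ADR), which leaves 1 WT SHAM library. RE-RE SHAM was highest, with 1.36, 5.67, 7.01 and 1.59 FPKM at ZT0, against 0, 2.44, 0 and 0 FPKM in WT SHAM.

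Other fatty acid genes gave a mixed picture. Of 14 further oxidation genes, 9 fell at ZT0 and 12 at ZT12 in WT ADX against WT SHAM and none rose, among them Oxct1, which activates ketone bodies (113 ± 8.52 FPKM in WT ADX at ZT0, against 166 ± 11 FPKM in WT SHAM). Of 14 peroxisomal genes, 11 fell at ZT0 and 6 at ZT12, among them Phyh, the phytanoyl-CoA hydroxylase of alpha-oxidation (log2 change -0.41 ± 0.07 at ZT0, adjusted p = 1.68e-05). In WT ADX+DEX against WT ADX at ZT0, 11 and 7 members of those lists rose and 0 and 2 fell, beside 36.4% of all genes that rose and 32.5% that fell, so the 7 of 14 peroxisomal genes are not far above the share of all genes.

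By contrast, 19 other handling and activation genes split, with 5 that rose and 4 that fell at ZT0 in WT ADX against WT SHAM and 9 that rose and 8 that fell in WT ADX+DEX against WT ADX at ZT0. The 4 falls in WT ADX are near the 19.4% of all genes that fell there, and the counts with dexamethasone are not far above the 36.4% and 32.5% of all genes. Gpihbp1, which anchors lipoprotein lipase to capillary endothelium, had a log2 change of 0.56 ± 0.11 in WT ADX at ZT0 (adjusted p = 0.000264), opposite to Lpl. Acsl5, another synthetase, measured 1.41 ± 0.231 FPKM in WT ADX+DEX at ZT0, against 5.27 ± 0.731 FPKM in WT ADX, opposite to Acsl1. Among 18 regulators and PPAR targets, 9 fell at ZT0 in WT ADX, led by the estrogen-related receptor gene Esrra (-0.65 ± 0.09, adjusted p = 1.24e-06). Esrra was 55.1 ± 3.04 FPKM in WT ADX+DEX at ZT0, against 27.8 ± 3.64 FPKM in WT ADX.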

How the data were processed

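RNA of whole tibialis anterior was sequenced in single-end reads of 60 bp, per the labels' protocols. The submitters' processing notes name HISAT2 2.1.0 and GRCm38, featureCounts 1.6.2, edgeR 3.30.0, Trim Galore 0.5.0 and FastQC 0.11.8. The deposited values are log2(FPKM + 0.01) for 13500 genes, and any adjustment for batch or age is not given in the sources used here. The unit of the deposited log2 table was taken from its values, which end at a floor of -6.64.

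FPKM was recovered by undoing the log2, and depth from the steps between values of 68 rarely detected genes (whole within 0.05 read). This depth limits the precision of low genes. Each ± is a standard error from the fit or an SD between libraries, and neither covers an error shared by all libraries of a group. Ensembl IDs were matched to symbols for 13441 genes and not for 59.

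The 12 groups were fitted together with limma 3.58.1 in R 4.3.3 on log2(FPKM + 0.01), with 35 residual degrees of freedom and an intensity trend, over 12000 genes at 1 FPKM or more in at least 3 libraries, which included all 34 members. Adjusted p-values are Benjamini-Hochberg over those genes within a contrast, two-sided, with a threshold of 0.05, and fold changes are on the log2(FPKM + 0.01) scale. "Rose" and "fell" refer to that threshold. The fit was tested on simulated data. P-values set each change against a spread per gene that is pooled over all 12 groups and drawn toward the intensity trend. It is not the spread of the compared groups alone, and it may be technical in part.

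The rule for naming genes took up to 8 members a comparison: those past the threshold with no value at 0 and no overlap between groups, by size of change, then Lpl, Cd36, Angptl4, Cpt1b, Slc25a20, Acadl, Hadha, Acacb, Ucp3, Ppara and Ppard. Some comparisons name more, and Fabp3, Hadh, Mlycd, Eci2 and Pdk4 were singled out after their values were seen. Lack of overlap was part of the rule, so it is no added support for the genes named by it. The share of all genes without overlap was not computed. From the other fatty acid lists, up to 4 genes with the smallest adjusted p could be named. The members and gene lists were chosen with earlier results of these data known. Alternatives were another offset, no filter on low values, equal library medians, age as a covariate, values at 0 taken as missing, leaving out 7 libraries or each library in turn, fitting only the groups compared, and a block by replicate number. No sample was left out of the main fit. Promoter sequences are from RefSeq (GRCm38.p6); those of Lpl, Angptl4, Cpt1b, Crat, Acaa2, Acat1, Decr1 and Acot13 were not used here.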

Additional observations from a re-analysis of the deposited data

Results flagged for a closer look

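In 25 of 373 combinations of gene and group, or 6.7%, 1 library stood apart from the others of its group by Dixon's criterion, where chance gives about 1 in 20. Of these, 6 were WT ADX+DEX ZT0 replicate 4, the highest of its group for Acadvl (272 FPKM), Hadhb (35.3 FPKM), Ech1 (133 FPKM), Decr1 (50.4 FPKM), Etfb (209 FPKM) and Ucp3 (54.2 FPKM). The same library had 378 FPKM of Pdk4, against 0 to 26.2 FPKM in the other 3.

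Other libraries stood highest in their group for Acadvl in WT ADX+DEX ZT12 replicate 7 (221 FPKM), Ucp3 in WT ADX+DEX ZT12 replicate 6 (41.9 FPKM), Acaa2 (98.6 FPKM) and Eci1 (90.8 FPKM) in WT ADX ZT12 replicate 7 and Mlycd in RE-RE ADX ZT0 replicate 2 (22.8 FPKM). In the sham groups these were Slc27a1 (52.7 FPKM) and Ppard (9.29 FPKM) in RE-RE SHAM ZT12 replicate 7, Decr1 in RE-RE SHAM ZT12 replicate 5 (44 FPKM), Angptl4 in WT SHAM ZT0 replicate 2 (2.44 FPKM) and WT SHAM ZT12 replicate 8 (0.499 FPKM), Etfb in WT SHAM ZT0 replicate 2 (153 FPKM), Acads in WT SHAM ZT12 replicate 6 (48.4 FPKM) and Ppara in WT SHAM ZT0 replicate 4 (2.96 FPKM). Libraries that stood lowest were Acsl1 in WT ADX+ADR ZT0 replicate 3 (36.8 FPKM, within a range of under 1 FPKM), Mlycd in WT ADX ZT12 replicate 4 (22.2 FPKM), Etfa in RE-RE ADX ZT0 replicate 2 (98.5 FPKM), Ppara in RE-RE SHAM ZT12 replicate 8 (1.86 FPKM), Acaa2 in WT SHAM ZT0 replicate 2 (108 FPKM) and Etfb in WT SHAM ZT12 replicate 7 (134 FPKM).

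The change after adrenalectomy differed between genotypes, as RE-RE minus WT on the log2 scale, for Ppara (2.37), Acadvl (0.43), Acot13 (0.42), Echs1 (0.41), Crat (0.4), Acacb (0.4) and Ppard (0.35) at ZT0. At ZT12 it differed for Ppara (1.84), Acacb (0.55), Slc27a1 (0.54), Echs1 (0.53), Ppard (0.39) and Crat (0.33). The change from ZT0 to ZT12 differed between WT ADX+DEX and WT ADX for Ppara (-1.88), Ppard (-0.64), Acacb (-0.46) and Acaa2 (-0.42), and between WT ADX+ADR and WT ADX for Ppara (-1.21).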

How the results depend on the processing

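Over the comparisons, 354 member changes passed the test. Of these, 1 missed the threshold with no filter on low values, 4 with log2(FPKM + 1), 4 with values at 0 taken as missing and 6 with equal library medians. It was missed by 38 with age as a covariate, 48 without the 7 libraries that share no low values and 64 with only the groups compared. A replicate block, possible only where groups share replicate numbers, lost the most, with 108 that missed the threshold and 202 that kept the call. The cause was not tested. With log2(FPKM + 1) the count of members was 1 for time in RE-RE SHAM and 0 for the time difference of WT ADX+ADR minus WT ADX. With equal medians it was 8 for RE-RE ADX against RE-RE SHAM at ZT12 and 3 for RE-RE SHAM against WT SHAM at ZT0. With age it was 9 for WT ADX against WT SHAM at ZT12, 0 for RE-RE ADX against RE-RE SHAM at ZT12 and 4 for the genotype difference at ZT0. With values at 0 missing it was 1 for time in RE-RE SHAM, 2 for time in RE-RE ADX and 3 for RE-RE SHAM against WT SHAM at ZT0. That setting turned round Ucp3 for time in RE-RE SHAM (-0.12) and Angptl4 against WT SHAM at ZT0 in WT ADX+DEX (-0.57) and WT ADX+ADR (-1.43).

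Without the 7 libraries the counts were 4 for time in WT SHAM and 0 in RE-RE ADX, 1 and 0 for RE-RE ADX against RE-RE SHAM at ZT0 and ZT12, 3 for RE-RE SHAM against WT SHAM at each time, and 2 and 3 for the genotype difference. With only the groups compared they were 0, 2, 0 and 0 for time in WT ADX, WT ADX+DEX, RE-RE SHAM and RE-RE ADX, 0 for RE-RE ADX against RE-RE SHAM, 17 for WT ADX+ADR against WT SHAM and 1 for RE-RE SHAM against WT SHAM, all at ZT0, 2 for each time difference against WT ADX and 4 for the genotype difference at ZT0.

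Replicate numbers did not pair the samples: same-numbered libraries had correlations of deviations from -0.14 to 0.25, and no comparison had all above 0.1. With a replicate block the counts were 0 (ZT0) and 2 (ZT12) for WT ADX minus WT SHAM, 0 at both times for RE-RE ADX against RE-RE SHAM, 13 for WT ADX+ADR against WT ADX at ZT12, and 0 and 2 for RE-RE SHAM against WT SHAM. No paired analysis was possible because ZT0 and ZT12 libraries share no numbers for the time comparisons.

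Leaving out each library in turn gave 24 to 27 (ZT0) and 20 to 27 (ZT12) members for WT ADX minus WT SHAM, 6 to 16 and 1 to 8 for RE-RE ADX against RE-RE SHAM, 3 to 5 at each time for RE-RE SHAM against WT SHAM, and 4 to 8 and 3 to 7 for the genotype difference. The counts for time ran from 1 to 4 with dexamethasone, 1 to 3 with adrenaline, 5 to 8 after adrenalectomy alone, 5 to 7 after sham surgery and 0 to 2 in both RE-RE conditions, and for the time differences 0 to 3 with adrenaline and 3 to 6 with dexamethasone. Refits of single member changes kept the call 2579 times and missed the threshold 292 times, with no change of sign. Angptl4 was the least abundant member, with 11 values listed at 0, and the part of depth in them was not tested.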
